A study of Homo sapiens with 6 samples.

Results

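The genes described here make, trim, bind or break down hyaluronan in WM266.4 cells, an established human melanoma line. They were chosen by name: the hyaluronan synthases HAS1, HAS2 and HAS3, the precursor enzyme UGDH, and the hyaluronidases HYAL1, HYAL2 and HYAL3. The others were CEMIP and CEMIP2, which have been linked to hyaluronan breakdown, and the receptor CD44. Of these 10 genes, 9 were among the 24526 genes of the count table, and all 9 passed the filter on low counts that left 16297 genes for testing. HAS1 had no entry and was not analysed here. The table holds genes with a total of at least 6 counts.

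Hyaluronan is a long unbranched sugar of the extracellular matrix, built at the plasma membrane by the HAS enzymes from UDP-glucuronic acid and UDP-N-acetylglucosamine. UGDH supplies the first of these precursors, and hyaluronidases cut the polymer. The CEMIP proteins have been linked to its breakdown, and CD44 is its main receptor at the cell surface. In skin and in its tumours the polymer fills the space between cells, and the balance of synthesis and cutting sets its length.

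The study asked how silencing of RIPK4, a serine/threonine kinase first known from keratinocytes, changes the transcriptome of melanoma cells. RNA was sequenced from 3 cultures given an siRNA specific for RIPK4 (RIPK4.si) and from 3 given a negative control siRNA (neg.si), 48 h after transfection. Cells of both groups had otherwise the same genotype and treatment, and the 3 libraries of a group came from independent experiments. The siRNA to RIPK4 is a single product in the study's methods, so its effect on RIPK4 and any other effect of the same siRNA cannot be told apart.

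Counts on genes ranged from 28464057 to 31688095 per library. RIPK4 itself was at 85.8, 76.5 and 54.7 CPM (its counts per library size after normalization) in neg.si replicates 1, 2 and 3, and at 19.9, 16.7 and 21.5 CPM in RIPK4.si. It fell by 1.90 on the log2 scale (SE 0.203, adjusted p = 0.0102), and its level followed the labels in all 6 libraries. Without neg.si replicate 2, or without RIPK4.si replicate 1, 2 or 3, its adjusted p was 0.106, 0.0940, 0.0622 and 0.0725. In these fits 0, 0, 4 and 0 of all genes had an adjusted p under 0.05. All 8 melanocytic markers were in the table, with a summed level of 3573.5 to 4012 CPM in neg.si and 2635 to 2759 CPM in RIPK4.si, and 1 of them, PMEL, fell (log2 fold change -1.30, adjusted p = 0.0111). The other 7 were not called: MITF, MLANA and TYRP1 had log2 fold changes of 0.04, 0.06 and 0.36, SOX10 was at -0.15, and TYR, DCT and S100B, which carry most of the sum, were at -0.57, -0.73 and -0.48 (adjusted p = 0.148, 0.0854 and 0.391), with no overlap between groups for TYR and DCT. Markers of other cells were low: 10.7 to 16.8 CPM summed over 5 detected keratinocyte markers, at most 3.86 CPM for endothelial and 8.20 CPM for leukocyte markers. Most of the keratinocyte sum was KRT10, with 10.5 ± 0.347 CPM in neg.si and 13.9 ± 2.13 CPM in RIPK4.si (adjusted p = 0.438). The 5 fibroblast markers other than COL1A2 summed to at most 2.93 CPM. COL1A2 had 695.5 ± 105.3 CPM in neg.si and 775.8 ± 264.4 CPM in RIPK4.si. The part of the lower summed melanocytic level in the hyaluronan results was not tested.

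Silencing of RIPK4 went with lower transcript levels of HAS3 and CEMIP2, which fell to 30.6% and 42.8% of neg.si. Levels of HAS2, CEMIP and CD44 were 1.34 to 1.44 times those of neg.si, with no overlap between groups, but none of them passed the test after adjustment. UGDH and HYAL2 had nearly equal means in both groups with a wide spread, and HYAL1 and HYAL3 were low. Log2 fold changes are RIPK4.si over neg.si, fitted with edgeR's quasi-likelihood test over all 16297 genes, and a gene is called when its Benjamini-Hochberg adjusted p is under 0.05.

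Of the 9 genes tested, 2 were called and both fell, against 0.393% of all genes tested that were called and fell (64 genes) and 0.767% called in either direction (125 genes). At an unadjusted p under 0.05 stood 5 of the 9, 3 higher and 2 lower in RIPK4.si, against 10.8% of all genes. The same 5 genes, HAS2, HAS3, CEMIP, CEMIP2 and CD44, had no overlap in CPM between the groups, against 17.6% of all genes. DESeq2 on the same counts called HAS3 and CEMIP2, against 2.78% of the genes it tested. It called none of the others, but gave HYAL1 no adjusted p. HAS3 was also a gene that the study named from these libraries, so its direction here is not independent of that choice. The study also measured HAS3 by qRT-PCR after RIPK4 silencing and reported a decrease.

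**Figure D1:**
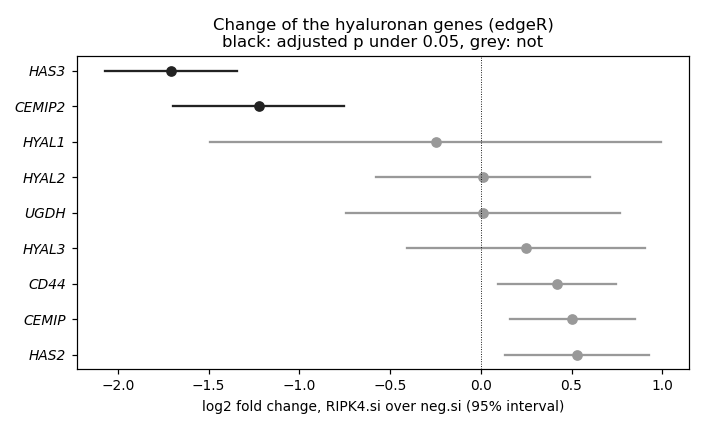
Log2 fold change of the 9 hyaluronan genes in RIPK4.si over neg.si (horizontal axis) with 95% confidence intervals from edgeR, ordered by size. Intervals of HAS3 (-2.07 to -1.34) and CEMIP2 (-1.70 to -0.75) lie wholly under 0 and are drawn in black because their adjusted p was under 0.05. Those of CD44, CEMIP and HAS2 lie just above 0 in grey, and the other 4 cross it.

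HAS3 encodes a plasma membrane synthase that makes shorter hyaluronan chains than HAS2. It lies at chr16:69105653-69118719 on the plus strand (GRCh38). Its level was 18.7, 19.2 and 17.8 CPM in neg.si replicates 1, 2 and 3, and 5.38, 5.81 and 5.85 CPM in RIPK4.si. All RIPK4.si libraries were far under all neg.si libraries, and the libraries of a group lay close together (18.6 ± 0.686 against 5.68 ± 0.260 CPM, SD, n = 3). The log2 fold change was -1.71 (SE 0.162, 95% interval -2.07 to -1.34, adjusted p = 0.00655), the 3rd smallest p of all genes tested. Its size stayed between -1.73 and -1.66 under all 14 alternative settings. The call was lost without neg.si replicate 2 (adjusted p = 0.105) and without RIPK4.si replicate 1, 2 or 3 (0.0885, 0.0545 and 0.0725), all fits with 1 library fewer. Over all genes, these fits called 0, 0, 4 and 0.

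HAS3 overlaps CHTF8, a gene on the opposite strand, over 365 exonic bases (7.0% of the exonic bases of HAS3), and counting ignored strand. CHTF8 had 7, 8 and 6 counts in neg.si and 9, 6 and 1 in RIPK4.si, too few for the test, against 158 to 578 counts of HAS3. The log2 ratio of HAS3 to CHTF8 counts was 6.37, 6.17 and 6.56 in neg.si and 4.13, 4.81 and 7.51 in RIPK4.si, a difference of -0.88 that rests on these few CHTF8 counts (two-sided exact permutation p = 0.4, where 3 against 3 libraries can reach 0.1). The groups overlapped in this ratio through RIPK4.si replicate 3, the library with a single CHTF8 count, and without it the difference was -1.90. Without RIPK4.si replicate 1 or 2 it was -0.21 or -0.55. Another gene, DERPC, is annotated over the same span as CHTF8 and was not analysed here. Whether reads that both genes share were left out by the counting was not tested, so the CHTF8 counts and this ratio cannot be read as the level of CHTF8. Reads from the shared bases cannot be assigned by strand, so the values of HAS3 hold this limit.

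The promoters of the 2 called genes are shown because they allow a reader to compare what stands before the genes that fell. A RefSeq (GRCh38.p14) promoter was at hand for 9 of the 10 genes, HAS1 among them. None was at hand for HAS2, so its promoter was not analysed here. The 250 bases before the RefSeq start of HAS3 (chr16:69107290-69107539, plus strand) and of CEMIP2 (chr9:71768514-71768763, minus strand) are printed from 5′ to 3′. Both windows lie inside the annotated gene span, since other transcripts start further upstream. Capitals mark matches on either strand to an E-box (CACGTG) or a GC box (GGGCGG, on the other strand CCGCCC).
HAS3: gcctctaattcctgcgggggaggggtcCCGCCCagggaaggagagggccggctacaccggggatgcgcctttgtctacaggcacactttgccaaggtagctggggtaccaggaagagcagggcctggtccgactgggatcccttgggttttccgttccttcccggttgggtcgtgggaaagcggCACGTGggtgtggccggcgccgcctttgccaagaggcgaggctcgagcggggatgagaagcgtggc
CEMIP2: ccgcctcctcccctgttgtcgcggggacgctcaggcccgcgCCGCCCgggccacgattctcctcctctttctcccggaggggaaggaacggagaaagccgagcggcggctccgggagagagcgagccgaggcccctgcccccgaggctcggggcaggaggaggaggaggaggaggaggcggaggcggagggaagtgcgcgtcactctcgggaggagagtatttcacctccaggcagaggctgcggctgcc
The HAS3 window held 1 E-box and 1 GC box, and the CEMIP2 window 1 GC box. Of the 9 genes with a promoter, HAS3 alone held the E-box letters, which 6.34% of 35116 RefSeq promoters hold in windows of the same length. GC box letters stood in 8 of the 9 (HYAL2 held none), against 42.6% of all promoters. Letters of the ETS core (CCGGAA, 14.5% of promoters) and of AP-1 (TGANTCA, 6.57%) stood in none of the 9, and those of a TATA box (TATAAA, 10.7%) in CEMIP only. These matches describe letters in a window and no binding was measured.

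The genes whose pattern over the 6 libraries was most like that of HAS3 were PRTFDC1, MGAM2 and UNC5A. Likeness was the root mean square difference of log2 CPM, centred on each gene's mean, and was 0.0601, 0.135 and 0.156. PRTFDC1, a homologue of the purine salvage enzyme HPRT1, went from 3.42 to 0.984 CPM, MGAM2, named for its likeness to the intestinal maltase-glucoamylase, from 21.6 to 6.47 CPM, and UNC5A, a netrin receptor, from 0.680 to 0.123 CPM. UNC5A rests on 3 to 22 counts per library.

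HAS2 encodes the synthase of long hyaluronan chains. Its level was 26.1, 28.5 and 32.6 CPM in neg.si and 35.2, 49.0 and 41.9 CPM in RIPK4.si. The highest neg.si library, replicate 3, was just under the lowest RIPK4.si library, replicate 1. Means were 29.1 ± 3.28 and 42.0 ± 6.87 CPM, and the log2 fold change of 0.53 (SE 0.175, 95% interval 0.14 to 0.93) had an unadjusted p of 0.0138 but an adjusted p of 0.270. Under the alternatives the adjusted p ran from 0.0958 to 0.740. Its antisense gene HAS2-AS1 shares 251 bases (5.9%) with its exons and stood at 4.02 ± 0.610 and 4.68 ± 0.794 CPM (log2 fold change 0.22, adjusted p = 0.844).

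**Figure D2:**
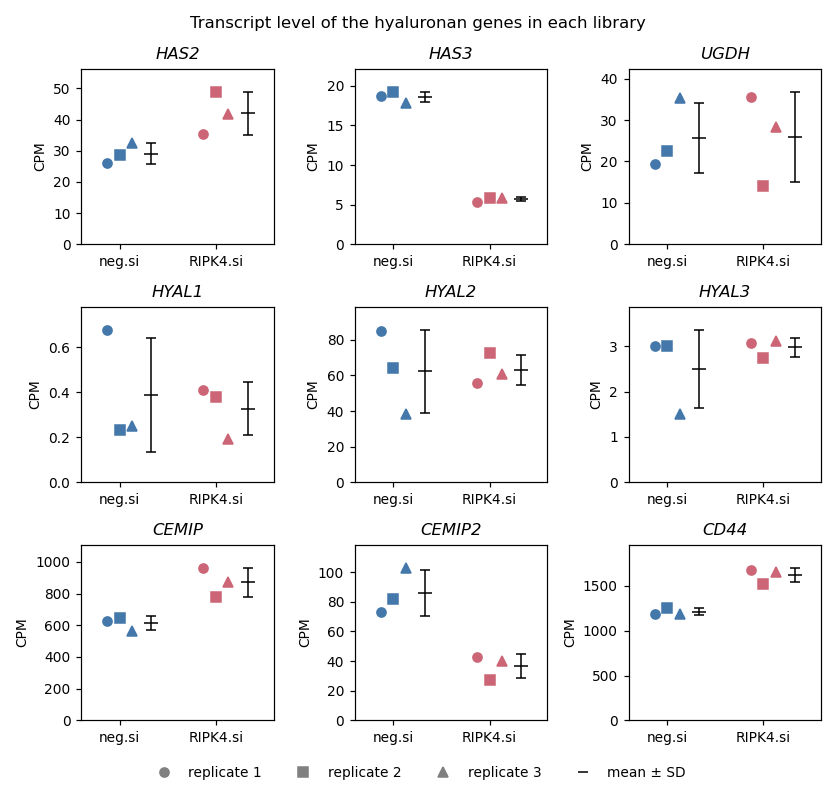
CPM of the 9 hyaluronan genes in each library (vertical axes from 0, own scale per gene), neg.si in blue and RIPK4.si in red, with symbols for replicates 1 to 3 and mean ± SD of 3 libraries beside them. HAS3 and CEMIP2 are lower in all RIPK4.si libraries, HAS2, CEMIP and CD44 are higher in all of them, and the groups overlap for UGDH, HYAL1, HYAL2 and HYAL3.

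The 2 detected synthases therefore stood in a different proportion in the groups. Per kilobase of exon, HAS3 made up 36.8%, 35.4% and 30.9% of the HAS2 and HAS3 transcripts in neg.si, and 11.1%, 8.83% and 10.2% in RIPK4.si. No library of a group reached the range of the other group. The difference of means was -24.3 percentage points, with a two-sided exact permutation p of 0.1, the smallest that 3 against 3 libraries allow. In RPKM (CPM divided by kilobases of exon), the synthases summed to 9.75, 10.4 and 11.1 in neg.si and 9.35, 12.7 and 10.998 in RIPK4.si. The lowest and the highest sum were both in RIPK4.si (10.4 ± 0.687 against 11.005 ± 1.66, exact permutation p = 0.7). In cultures of a single line, fewer cells with a transcript and less of it per cell cannot be told apart in such bulk values.

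**Figure D3:**
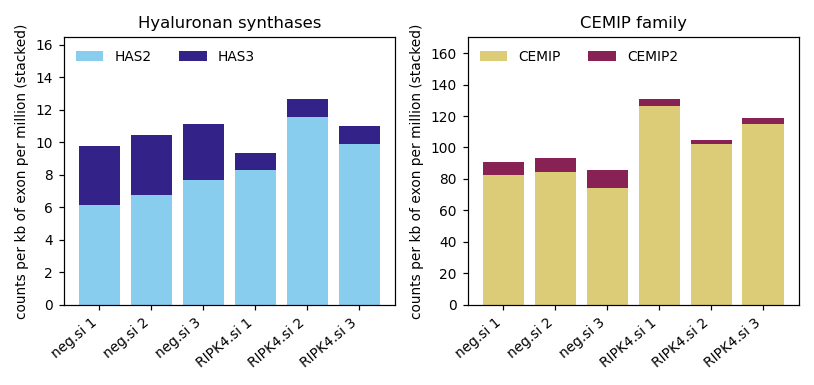
Stacked RPKM (CPM divided by kilobases of exon) of HAS2 and HAS3 (left) and of CEMIP and CEMIP2 (right) in each of the 6 libraries. The HAS3 part is 3.43 to 3.69 in neg.si and 1.04 to 1.13 in RIPK4.si, while the summed bars of the synthases overlap between groups. CEMIP2 is the small upper part on the right.

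UGDH, at chr4:39498755-39528311, oxidises UDP-glucose to UDP-glucuronic acid. Its level was 19.5, 22.4 and 35.3 CPM in neg.si and 35.4, 14.02 and 28.4 CPM in RIPK4.si. The range of neg.si lay within that of RIPK4.si, which held both the lowest and the highest library. The log2 fold change was 0.01 with a 95% interval of -0.74 to 0.77 (adjusted p = 0.997). That interval spans folds of 0.598 to 1.70, so changes within it are not excluded here, and larger ones could also go uncalled after adjustment. UGDH-AS1 overlaps 513 bases (12.7%) of its exons on the opposite strand and had 2.53 ± 0.549 and 3.72 ± 0.860 CPM (log2 fold change 0.56, adjusted p = 0.512).

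The hyaluronidase genes HYAL3, HYAL1 and HYAL2 lie side by side on chromosome 3, at chr3:50292831-50299405, chr3:50299890-50312381 and chr3:50317790-50322782, all on the minus strand. HYAL2, a membrane-anchored enzyme that cuts long chains, was at 84.6, 64.3 and 38.1 CPM in neg.si and 55.7, 72.4 and 60.7 CPM in RIPK4.si. The 3 RIPK4.si libraries lay within the range of neg.si, whose replicates 1 and 3 were the extremes of all 6. Means were 62.4 ± 23.3 and 62.9 ± 8.58 CPM, and the 95% interval of the log2 fold change ran from -0.58 to 0.60 (adjusted p = 0.997). TUSC2, a same-strand neighbour, shares 509 bases (11.5%) with the exons of HYAL2 and differed as little (20.2 ± 5.85 and 21.0 ± 2.79 CPM, adjusted p = 0.975).

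HYAL3 was at 3.003, 2.997 and 1.51 CPM in neg.si and 3.07, 2.73 and 3.12 CPM in RIPK4.si. Replicate 3 of neg.si was the low library and the other 5 lay together. The log2 fold change was 0.25 (SE 0.290, adjusted p = 0.877), and without that library it was -0.01. NAA80 and IFRD2, both on the same strand, share 232 bases (11.8%) and 43 bases (2.2%) with the exons of HYAL3. NAA80, an actin acetyltransferase gene, had 5.15 ± 0.442 and 6.04 ± 0.602 CPM (adjusted p = 0.785). IFRD2 had 25.8 ± 7.41 and 37.6 ± 5.51 CPM with no overlap between groups (log2 fold change 0.54, adjusted p = 0.420).

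HYAL1, the lysosomal hyaluronidase, had 21, 7 and 8 counts in neg.si and 12, 11 and 6 in RIPK4.si. With 65 counts over all libraries the groups overlapped, and the 95% interval of its log2 fold change ran from -1.49 to 0.99 (adjusted p = 0.951). With so few counts and this spread, a change within these bounds is not excluded, and a larger one could go uncalled. The sign of its log2 fold change, -0.25, turned to 0.44 without neg.si replicate 1.

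CEMIP2, or TMEM2, encodes a membrane protein that has been linked to hyaluronan cutting at the cell surface, and lies at chr9:71683366-71816690 on the minus strand. No other annotated gene shares exonic bases with it. Its level was 73.3, 81.5 and 103.0 CPM in neg.si and 43.0, 27.5 and 39.9 CPM in RIPK4.si. All RIPK4.si libraries were under all neg.si libraries, with replicate 3 of neg.si the highest and replicate 2 of RIPK4.si the lowest. Means were 86.0 ± 15.3 and 36.8 ± 8.20 CPM. The log2 fold change was -1.22 (SE 0.210, 95% interval -1.70 to -0.75, adjusted p = 0.0397), which put it 85th by p. The size ran from -1.34 to -1.04 under the alternatives. The call was lost without neg.si replicate 2 (adjusted p = 0.237) and without RIPK4.si replicate 1, 2 or 3 (0.139, 0.126 and 0.220). Those fits called 0, 0, 4 and 0 of all genes.

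CEMIP, at chr15:80779343-80951776, encodes a secreted protein needed for hyaluronan breakdown in fibroblasts. Its level was 629.6, 645.0 and 566.8 CPM in neg.si and 962.1, 777.6 and 873.9 CPM in RIPK4.si. The lowest RIPK4.si library, replicate 2, was above the highest neg.si library. Means were 613.8 ± 41.4 and 871.2 ± 92.3 CPM, and the log2 fold change of 0.51 (SE 0.154, 95% interval 0.16 to 0.85) had an unadjusted p of 0.00893 and an adjusted p of 0.220, which ran from 0.0792 to 0.705 under the alternatives. The genes on its opposite strand took few of its bases: MESD shares 224 (2.9%) and had 122.5 ± 6.04 and 128.7 ± 13.5 CPM, and AC027808.2, with 1 to 9 counts per library, shares none.

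The ratio of CEMIP to CEMIP2 per kilobase of exon, a value chosen after the levels were seen, was 10.4, 9.60 and 6.68 in neg.si and 27.1, 34.3 and 26.6 in RIPK4.si. The groups were apart (8.91 ± 1.97 against 29.4 ± 4.30, two-sided exact permutation p = 0.1, the smallest possible). CEMIP2 was called and CEMIP was not, so the ratio is given as a description of both.

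CD44 encodes the main cell surface receptor of hyaluronan and lies at chr11:35138882-35232402 on the plus strand. Its level was 1189.7, 1253.9 and 1188.6 CPM in neg.si and 1676, 1524 and 1656 CPM in RIPK4.si. The groups did not overlap and the libraries of each lay close together (1211 ± 37.4 and 1619 ± 82.6 CPM). The log2 fold change of 0.42 (SE 0.144, 95% interval 0.09 to 0.74) had an unadjusted p of 0.0169 and an adjusted p of 0.298, from 0.131 to 0.823 under the alternatives. Overlapping long noncoding genes were low: CD44-AS1 had 1 to 18 counts, AL356215.1 1.03 ± 0.401 and 1.29 ± 0.285 CPM, and AL133330.1 0.676 ± 0.326 and 0.543 ± 0.424 CPM. Counts are per gene, so the exons by which CD44 isoforms differ were not analysed here.

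CD44 was also the only one of the 9 genes whose 3′ UTR held either of 2 words of 7 letters whose presence in the 3′ UTR an earlier analysis of these data had related to log2 fold change. The sites are shown with the word in capitals and 11 bases on each side, on the plus strand of GRCh38, at chr11:35231700-35231728 and chr11:35231809-35231837.
CD44 site 1: actctggaagcACAGCTTgactacacgtc
CD44 site 2: ttattttgcaaAGCAACCtaagagctaaa
The word of site 1 stood in the 3′ UTR of 18.4% of 12990 genes tested, and that of site 2 in 10.2%. The words were chosen for their relation to fold changes in these same libraries, so nothing about the log2 fold change of CD44 is read from them. HAS3 and CEMIP2, with 3′ UTRs of 2402 and 3587 bases, held neither word. A match is a run of letters, and whether it is a site of regulation was not tested.

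Per kilobase of exon, the level in neg.si was highest for CD44 (121.2 RPKM), then CEMIP (80.5), HYAL2 (14.1), CEMIP2 (9.29), HAS2 (6.86), UGDH (6.39), HAS3 (3.57), HYAL3 (1.27) and HYAL1 (0.126). CD44 and CEMIP stood above 98.6% and 97.7% of 16239 genes with a length, and HAS3 above 54.4%. Within libraries this order held in replicates 1 and 2, while in replicate 3 HYAL2 (8.62) was under CEMIP2 (11.1) and UGDH (8.76), and HAS2 (7.69) was under UGDH, so the order within these pairs is not fixed by the data. In RIPK4.si the order was CD44 (162.0), CEMIP (114.3), HYAL2 (14.2), HAS2 (9.91), UGDH (6.45), CEMIP2 (3.98), HYAL3 (1.51), HAS3 (1.09) and HYAL1 (0.106). There UGDH was above HAS2 in replicate 1 (8.81 against 8.31) and under it in the others. HAS3 lay above HYAL3, and CEMIP2 above UGDH, in all 3 neg.si libraries, and under them in all 3 RIPK4.si libraries.

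The spread of some of these genes within a group went with the GC content of the genes. The rank correlation, across genes, of a library's deviation in level with GC content was 0.555, 0.0815 and -0.547 in neg.si replicates 1, 2 and 3 and lay between -0.0788 and 0.165 in RIPK4.si. HYAL2, with 62.8% GC, was highest in neg.si replicate 1 and lowest in replicate 3, while UGDH (39.5% GC) and CEMIP2 (44.3%) were highest among neg.si in replicate 3. With the GC trend of each library removed, the SD of log2 level in neg.si went from 0.584 to 0.204 for HYAL2, from 0.446 to 0.203 for UGDH, from 0.554 to 0.286 for HYAL3 and from 0.251 to 0.124 for CEMIP2, but was larger for CD44 (0.0441 to 0.139) and for HAS3 (0.0533 to 0.0730). UGDH kept an SD of 0.639 in RIPK4.si. With that trend removed, edgeR called 533 of all 16297 genes, against 125 without the removal. In that fit HAS3 was at a log2 fold change of -1.70 (adjusted p = 0.000985) and CEMIP2 at -1.19 (adjusted p = 0.00646). None of the other 7 genes was called, with CEMIP at an adjusted p of 0.0799 and HAS2 at 0.0958.

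**Figure D4:**
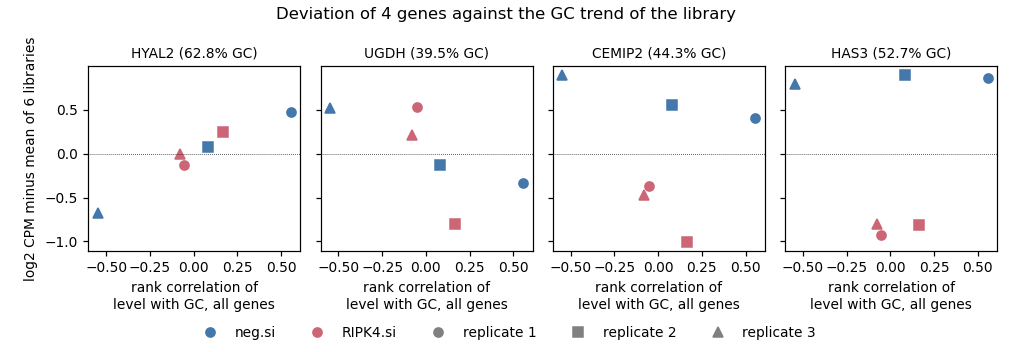
Deviation of HYAL2, UGDH, CEMIP2 and HAS3 from their mean log2 CPM over 6 libraries (vertical axis) against the rank correlation of all genes' levels with GC content in the same library (horizontal axis), neg.si in blue and RIPK4.si in red. In neg.si HYAL2 is higher, and UGDH and CEMIP2 lower, where that correlation is higher, while HAS3 differs between groups at all positions.

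The wider hyaluronan pathway was described by a list of 67 genes in 6 roles, of which 59 were in the table and 50 were tested. edgeR called none of the 50, where it called 0.767% of all genes, and DESeq2 called 1 (TNFAIP6), where it called 2.78%. At an unadjusted p under 0.05 stood 8, 4 higher (UGP2, TNFAIP6, NF2 and TFAP2A) and 4 lower (GFPT2, PTX3, ADAM10 and ADAM17), where 10.8% of all genes did. Groups did not overlap in 8 of the 50, where 17.6% of all genes did. Of the 50, 25 had a positive and 25 a negative log2 fold change, and the median was 0.01 against -0.02 for all genes tested. Genes named beyond a role's smallest p or highest level were chosen after their values were seen.

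Precursor supply had 10 genes tested with a median log2 fold change of 0.19. UGP2, which makes UDP-glucose for UGDH, was at 186.0, 202.1 and 224.7 CPM in neg.si and 245.6, 279.5 and 250.04 CPM in RIPK4.si, apart between groups (log2 fold change 0.34, adjusted p = 0.438). GFPT2, an entry enzyme of the hexosamine pathway to UDP-N-acetylglucosamine, was at 9.58 ± 1.11 and 6.82 ± 0.216 CPM (-0.49, adjusted p = 0.326). In the breakdown of hyaluronan fragments 4 genes were tested, with a median of -0.08.

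Among other receptors (8 tested, median 0.08) the range of log2 fold changes was -0.29 to 0.21. C1QBP, also named hyaluronan-binding protein 1, had the highest level per length, with 220.6 ± 46.8 and 242.1 ± 55.5 CPM (adjusted p = 0.918). PTPRJ, a receptor tyrosine phosphatase whose place in this role is uncertain, had the smallest p (log2 fold change 0.21, adjusted p = 0.744). Of 9 matrix and serum proteins that bind the polymer (median -0.13), TNFAIP6, which transfers heavy chains onto hyaluronan, was at 8.43, 7.76 and 7.84 CPM in neg.si and 13.02, 16.7 and 11.3 CPM in RIPK4.si. The groups were apart, with a log2 fold change of 0.77 (SE 0.193) that edgeR did not call (adjusted p = 0.1302) and DESeq2 did (adjusted p = 0.0265). ITIH5, a family member of these heavy chains, was abundant at 1462 ± 27.2 and 1296 ± 318.1 CPM (adjusted p = 0.875), with replicate 2 of RIPK4.si low at 939.1 CPM.

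Linkers, sheddases and splicing factors of CD44 had 11 genes tested and a median of 0.10. ADAM10, a protease that sheds CD44, was at 328.6, 389.3 and 567.0 CPM in neg.si and 294.1, 199.8 and 262.3 CPM in RIPK4.si. Its groups did not overlap, but the spread was wide (log2 fold change -0.77, SE 0.231, adjusted p = 0.219). With the GC trend removed it was called (adjusted p = 0.0447), as was TFAP2A (adjusted p = 0.0472). That fit called 533 of all 16297 genes, where the main fit called 125. ADAM17, a related sheddase, was at 68.0 ± 18.6 and 38.2 ± 10.8 CPM (-0.83, adjusted p = 0.241). MMP14, a membrane metalloprotease, had 1448 ± 432.0 and 1447 ± 85.3 CPM (adjusted p = 0.999). Among regulators of the synthases (8 tested, median 0.01), TFAP2A, a transcription factor of the neural crest and skin, was at 24.4 ± 1.13 and 34.5 ± 2.01 CPM with groups apart (0.50, adjusted p = 0.196), and OGT, which attaches N-acetylglucosamine to proteins, was at 160.5 ± 36.6 and 167.9 ± 17.8 CPM (adjusted p = 0.964).

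**Figure D5:**
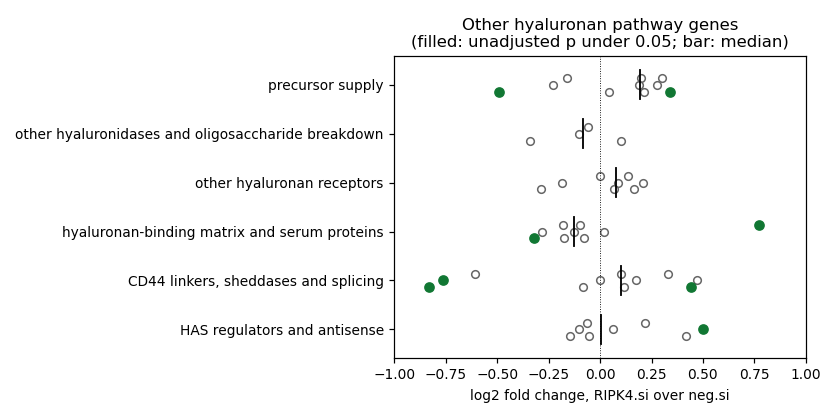
Log2 fold change in RIPK4.si over neg.si (horizontal axis) of the 50 tested genes of the wider hyaluronan list in 6 roles (vertical axis), 1 circle a gene, filled where the unadjusted p was under 0.05, with a bar at the median of each role. Values lie between -0.83 and 0.77, on both sides of 0 in each role, and none passed an adjusted p of 0.05.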

How the data were processed

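Libraries of poly(A) RNA from WM266.4 cells were prepared and sequenced for the authors by a service provider, as paired reads on the BGISEQ-500 platform. Reads were trimmed with Cutadapt, checked with FastQC and aligned with TopHat to GRCh38.p13, and HTSeq counted the read pairs of each gene, ignoring strand. Deposited count values are whole numbers per gene and were the only values analysed. The deposited signal values are counts that the authors divided by DESeq2 size factors. The fold values (a ratio), log2 fold changes and p-values deposited beside them are the authors' own DESeq2 comparison and were not used.

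Counts were fitted in R 4.3.3 by edgeR 4.0.16 (TMM scaling, filterByExpr, quasi-likelihood test of condition, Benjamini-Hochberg adjustment over 16297 genes), with all 6 libraries and no covariate. CPM is the count scaled to the normalized library size, and RPKM divides it by the exonic length in GENCODE release 44 (24416 of 24526 identifiers matched). Log2 CPM for likeness and spread used a prior count of 2. GC content is that of the longest transcript. Groups follow the labels, where neg.si is control.si. Values are mean ± SD of 3 libraries. Single ratios were compared by two-sided exact permutation tests. Library totals were about equal, and counting error weighs most on genes with few counts, among them HYAL1 (65 in all), CHTF8 (37), CD44-AS1 (44) and AC027808.2 (20). Ratios, permutation tests and figures were computed in Python 3.11.15 (scipy 1.17.1, pandas 2.3.3, numpy 2.4.6, matplotlib 3.10.9). The scripts were tested on simulated data.

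The 10 genes, the wider list, the markers and the tests were chosen with earlier results of these data known. The genes named were the 10, RIPK4, genes overlapping them, per role of the wider list any called gene, the smallest p and the highest level per length, and the 3 genes most like HAS3. A gene named by this rule may be left out and is then not reported here. Each of these choices was changed alone: DESeq2 1.42.0 as the test, size factors of DESeq2 or the upper quartile for scaling, all genes kept or only those with 10 or more counts in all libraries, the replicate number added as a block, the GC trend of a library removed by offsets (lowess, span 0.3), and 1 library dropped at a time. The block and the GC offsets were also used together.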

Additional observations from a re-analysis of the deposited data

How the results depend on the processing

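The count of called hyaluronan genes was 2 (HAS3 and CEMIP2) under all settings that kept 6 libraries, and 0 to 2 with 1 library left out. It was 0 without neg.si replicate 2 or any of the 3 RIPK4.si libraries. Over all genes, the fit without neg.si replicate 2 called 0, and those without RIPK4.si replicates 1, 2 and 3 called 0, 4 and 0. In the same order, 5, 5, 5 and 4 hyaluronan genes kept an unadjusted p under 0.05. Calls over all genes were 125, against 430 with DESeq2, 533 with the GC trend removed and 434 with the replicate block and the GC trend removed, and 0 to 295 with 1 library left out. The wider list had 0 calls, against 1 with DESeq2 (TNFAIP6), 2 with the GC trend removed and 1 (ADAM10) with the block as well. The log2 fold change of RIPK4 ran from -2.06 to -1.74 with 1 library left out, and its call was lost in 4 of these 6 fits. The cause of these differences was not tested.

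The labels do not say whether libraries with the same replicate number came from the same experiment. Correlations of same-numbered deviations were -0.242, 0.251 and 0.346, of mixed sign, and do not settle it. With the replicate block, 131 genes were called, HAS3 stayed at -1.71 and the difference in its share of the synthases at -24.3 percentage points, and no call of the 9 genes changed. Signs turned in UGDH, HYAL1, HYAL2 and HYAL3, none of them called. UGDH went to -0.044 with the replicate block and -0.013 with the block and the GC trend removed. With 1 library left out, log2 fold changes ran from -0.27 to 0.32 for UGDH, from -0.49 to 0.44 for HYAL1, from -0.24 to 0.31 for HYAL2 and from -0.009 to 0.42 for HYAL3. Depth limits HYAL1 (65 counts in all) and CHTF8.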

Other observations

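LYVE1, the hyaluronan receptor of lymphatic endothelium, did not pass the filter on low counts and is described here because its values stood out once seen. It had 5, 1 and 2 counts in neg.si and 21, 10 and 29 in RIPK4.si, and all RIPK4.si libraries were above all neg.si libraries. With no filter on low counts edgeR gave a log2 fold change of 2.90 (SE 0.643), a size that depends on few counts, with an unadjusted p of 0.000713 and an adjusted p of 0.0887. At 0.0859 ± 0.0671 and 0.665 ± 0.296 CPM the transcript was scarce in both groups.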
